A study of Mus musculus with 18 samples.

Results

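REST (RE1-silencing transcription factor) is a zinc-finger repressor that binds a bipartite DNA element, RE1, near many genes of neurons. It recruits corepressor complexes with histone deacetylases and a histone demethylase, and it is known for holding neuronal genes down in cells that are not neurons, embryonic stem (ES) cells among them. The 29 genes described here are neuronal genes with REST sites, taken as a list and matched by gene symbol to a table of 24116 mouse genes; all 29 were found, and 26 of them were among the 14901 genes with enough counts to be tested. They encode synaptic vesicle proteins, secretory granule proteins, cytoskeletal proteins, ion channels and receptors, cell surface proteins and scaffolds. Rest itself was not manipulated in these cells, so repression of the listed genes by REST was not tested.

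RNA was measured by sequencing in 18 libraries of mouse ES cells of strain 129S6/SvEvTac, cultured in serum with LIF. The groups were Snf2h ko cells re-expressing an ATPase-mutant Snf2h, the mutant add-back (n = 2, replicates 1 and 3), Snf2h ko cells re-expressing wild-type Snf2h, the wild-type add-back (n = 3), Snf2h ko cells (n = 5) and wild-type cells (n = 8). Smarca5 encodes Snf2h, the motor of ISWI chromatin remodellers, which slide nucleosomes along DNA. Both add-back lines carry the ko, so the comparisons follow loss of the protein, its return and its ATPase activity. Per the labels, ko and mutant add-back cells had feeder cells (mouse embryo fibroblasts) under them for at least their first passages after a thaw, and the other groups grew on gelatin. Feeder use therefore differs between the same groups as active Snf2h, and the 2 cannot be told apart. No source used here gives the add-back construct, its promoter or the number of clones. The labels speak of biological replicates without saying that they were separate cultures, so p-values measure the spread between these samples, which may be technical.

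Library totals ranged from 15.3 to 37.0 M counts. They fell into 3 depth classes: low (under 20 M counts: both mutant add-back, all wild-type add-back, ko 3 to 5 and wild type 6 to 8), middle (20 to 30 M: ko 1 and 2 and wild type 1 and 2) and high (over 30 M: wild type 3 to 5). The labels name no batch, and the classes were drawn from the totals. Smarca5 averaged 58.5 ± 14.3 CPM in the mutant add-back (counts per M counts, with TMM-scaled library sizes, ± SD), 86.0 ± 3.63 CPM in the wild-type add-back, 9.36 ± 0.590 CPM in the ko and 185 ± 29.1 CPM in wild type, and the ko libraries were below all others. All 7 ES cell markers examined stood above 1 CPM in every group, and Pou5f1, a core pluripotency factor, averaged 1955 CPM in the mutant add-back, 1544 CPM in the wild-type add-back, 1541 CPM in the ko and 1396 CPM in wild type.

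The 2 parts of the RE1 element, TCAGCACC and GGACAG, were searched on both strands of the promoters (250 bases before to 50 after each start), which RefSeq gives on GRCm38.p6 for 18 of the 29 genes (27 promoters). The first part was present in 4 of 27 promoters (14.8%), against 1.65% of all 32851 RefSeq promoters. The genes were listed for having REST sites, so a higher share among them is no independent support. The second part was present in 25.9% of the members' promoters, against 22.2% of all promoters. The parts joined by 2 bases of any kind were present in 0 of 27 promoters, against 0.0244% of all. At so low a share, 0 of 27 is uninformative, and sites outside these windows were not searched. The 26-base windows that begin 1 base before each first part are shown because they are the matches to the longer part among these genes; capitals mark the parts found. The Unc13a and Scg2 windows lie 6 to 31 bases after the start and from 24 bases before it to 2 bases after it, on the strand opposite the gene. The Celsr3 window lies 127 to 102 bases before the start, and the Syn1 window 232 to 207 bases before it, both on the strand of the gene.
Unc13a, chr8:71671727-71671752, plus strand: tTCAGCACCgggggcgcGGACAGcgc
Scg2, chr1:79440025-79440050, plus strand: tTCAGCACCGGACAGctcctcggctt
Celsr3, chr9:108825918-108825943, plus strand: tTCAGCACCgtgggcagcacttctgt
Syn1, chrX:20921125-20921150, minus strand: tTCAGCACCgcggtcagagccttcgc
In Unc13a the parts lie 8 bases apart and in Scg2 they adjoin. In Celsr3 and Syn1 the second part differs by 1 base from its letters at the 2-base spacing. A match is a run of letters in these windows and says nothing of binding.

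The levels of the listed genes in these ES cells spanned a wide range, and 3 of the 29 were at or near 0. On a per-length scale (RPKM, CPM divided by gene width in kilobases), 15 of 29 reached a mean of 1 RPKM in the mutant add-back, 16 in the wild-type add-back, 15 in the ko and 15 in wild type. Stmn2, which encodes a microtubule-destabilising protein of growing axons, had the highest level: 64.8 RPKM in the mutant add-back, 72.8 RPKM in the wild-type add-back, 63.0 RPKM in the ko and 67.7 RPKM in wild type. In wild type it was followed by Nefl, a neurofilament subunit, at 10.6 RPKM and by Chga, a granule protein, at 10.1 RPKM. The lowest in wild type were Calb1, Scg2 and Gria2 at 0.0304, 0.00748 and 0.00440 RPKM.

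**Figure D1:**
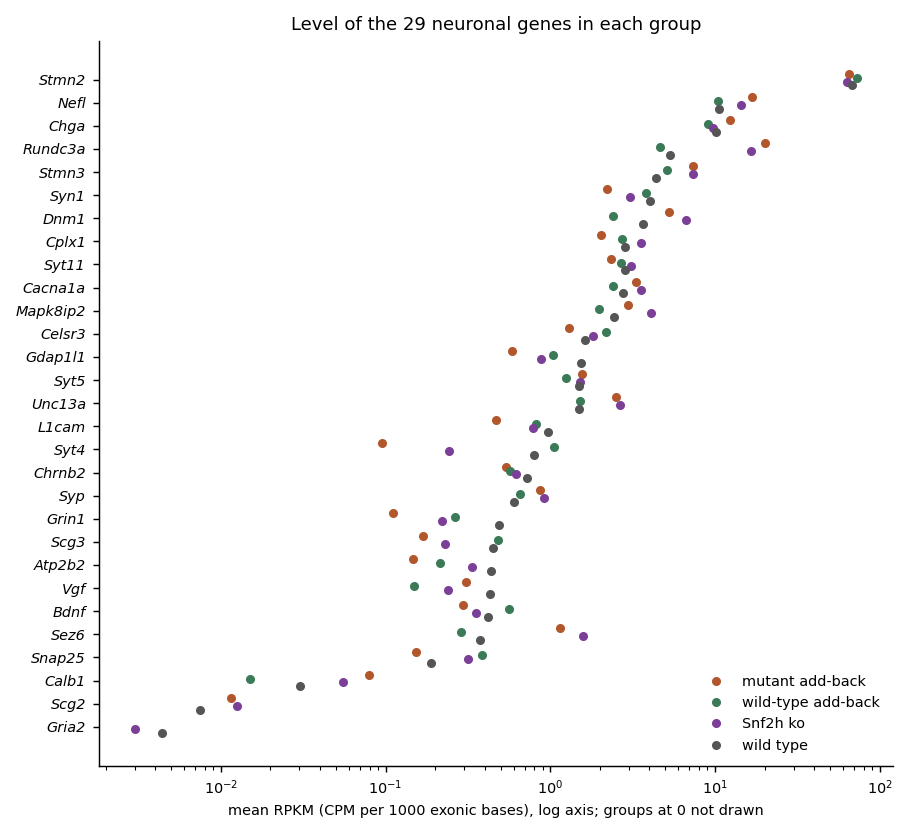
Mean level per length (RPKM, log scale) of each listed gene in the mutant add-back, wild-type add-back, Snf2h ko and wild-type groups. Stmn2 stands apart from the rest at 63.0 to 72.8 RPKM in the 4 groups, and Gria2, Scg2 and Calb1 lie at the bottom.

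Listed genes changed in both directions in cells without Snf2h. In the ko, 12 of 26 tested genes (46.2%) passed an adjusted p under 0.05 against wild type in edgeR's quasi-likelihood test with Benjamini-Hochberg adjustment over all genes, and 55.0% of all tested genes did. The 8 that rose were Sez6, Rundc3a, Dnm1, Unc13a, Stmn3, Mapk8ip2, Nefl and Cacna1a (30.8% of the 26, against 26.8% of all genes), and the 4 that fell were Syt4, Scg3, Vgf and Gdap1l1 (15.4%, against 28.2%). The median log2 fold change was 0.05 over the list and -0.01 over all genes. The median differed between depth classes: it was -0.06 within the middle class (9 called higher, 8 lower) and 0.68 within the low class (15 higher, 2 lower). In a fit on the low-class libraries alone, 15 were called higher and 4 lower, against 32.5% and 34.2% of all genes. The median there was 0.68 over the list and -0.01 over all genes. All-gene shares by direction were not counted within the middle class. The ko libraries fall into the low and the middle depth class. Each ko effect on a listed gene called over all libraries is therefore also given below within each class. These values come from a fit with a mean for every group and class. In wild type and the ko, libraries of the same low or middle class differed little beyond counting noise. Their chi-square per gene, near 1 for counting noise alone, was 1.48 to 2.55. Pairs from different classes of these groups gave 31 to 69.2. Within-class p-values thus rest in part on libraries that may be technical replicates. Not every class was so uniform: pairs within the high class (wild type 3 to 5) gave 15.9 to 40.8. The pair of mutant add-back libraries, both of the low class, gave 14. Summed over the 29 genes, the level was 529.1 to 670.9 CPM in the ko and 535.5 to 606.5 CPM in wild type, ranges that overlap. Stmn2 held 46.7 to 65% of that sum, depending on the library. Without Stmn2 the sum was 275.2 to 288.5 CPM in the mutant add-back, 199.7 to 203.6 CPM in the wild-type add-back, 282.0 to 317.0 CPM in the ko and 194.4 to 264.8 CPM in wild type. Every ko and mutant add-back library then lay above every library of the other 2 groups. Rundc3a alone held 44.1 to 55.9 CPM of this sum in the ko and 58.2 to 65.8 CPM in the mutant add-back. It held 13.95 to 14.8 CPM in the wild-type add-back and 10.3 to 20.7 CPM in wild type. The separation therefore does not show a rise of the list as a whole.

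Fibroblast markers moved with these comparisons. The summed level of 14 embryonic fibroblast markers was 73.13 to 84.69 CPM in the mutant add-back, 23.39 to 25.36 CPM in the wild-type add-back, 87.93 to 100.7 CPM in the ko and 23.5 to 45.3 CPM in wild type. Of the 10 fibroblast markers tested, 8 rose and 1 fell in the ko against wild type. The collagen gene Col1a1 averaged 15.8 CPM in the ko and 4.60 CPM in wild type, whereas the fibroblast markers Lum, Dcn and Fap were at or near 0 in both (at most 0.0376 CPM). The summed level of 12 markers of neurons and neural progenitors outside the list was 86.98 to 88.96 CPM in the mutant add-back, 85.14 to 91.21 CPM in the wild-type add-back, 101.2 to 108.4 CPM in the ko and 62.42 to 102.8 CPM in wild type. Of the 9 tested, 4 rose in the ko (Sox1, Nes, Zic1 and Elavl3) and 2 fell (Elavl4 and Rbfox3). Pax6, Neurod1 and Map2 were not called, at 6.20, 11.95 and 14.3 CPM in the ko and 4.99, 12.9 and 16.4 CPM in wild type. The markers Dcx (neuronal) and Neurog2 (proneural) were near 0 in every group (group means of at most 0.0630 CPM). The summed level of 8 primitive endoderm markers was 2794 and 2991 CPM in the mutant add-back, 1889 to 2150 CPM in the wild-type add-back, 6486 and 6976 CPM in ko 1 and 2, 1656 to 1730 CPM in ko 3 to 5 and 989 to 2621 CPM in wild type. Ko 1 and 2 stood above all other libraries, and wild type 1 and 2 of their middle depth class had 1213 and 1278 CPM. Ko 3 to 5 lay inside the range of all wild-type libraries. They lay below wild type 6 to 8 of their low depth class (2571 to 2621 CPM), so the direction differed between the classes. The part of these cells in the results below was not tested. In bulk RNA, fewer cells of a type and less RNA per cell cannot be told apart.

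Among the 9 genes of vesicle release and recycling, Unc13a and Dnm1 rose in the ko, Syt4 fell, and 6 were not called (33.3% called, against 55.0% of all genes). Unc13a encodes a priming factor of synaptic vesicles. It had 18.1 and 22.1 CPM in the mutant add-back libraries, 11.9, 12.8 and 11.9 CPM in the wild-type add-back, 25.01, 24.0, 19.3, 18.2 and 20.3 CPM in the ko and, in wild type, 8.77 CPM at the lowest, 12.1 CPM at the median and 16.4 CPM at the highest. Every ko and mutant add-back library lay above every wild-type add-back and wild-type library. The log2 fold change was 0.82 ± 0.13 (SE) in the ko against wild type (adjusted p = 3.25e-05 in edgeR's quasi-likelihood test), -0.81 ± 0.17 in the wild-type add-back against the ko (0.00105) and 0.72 ± 0.21 in the mutant against the wild-type add-back (0.0121). In the mutant add-back against wild type it was 0.73 ± 0.17 (0.00232). Without mutant add-back replicate 3 the comparison with the wild-type add-back gave 0.56 (adjusted p = 0.13) and that with wild type 0.58 (0.075). The ko effect was 0.92 (adjusted p = 0.000154) within the middle class and 0.85 (0.000113) within the low class. RefSeq places Colgalt1 over part of the Unc13a span (chr8:71624125-71671774), and the strand setting of the counting is not given in the sources used here.

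Dnm1, which encodes the GTPase that pinches off endocytic vesicles, was also higher in the ko. It had 23.4 and 27.2 CPM in the mutant add-back, 11.4, 11.8 and 11.7 CPM in the wild-type add-back, 34.6, 35.4, 30.1, 31.0 and 30.4 CPM in the ko and, in wild type, 10.2 CPM at the lowest, 18.0 CPM at the median and 29.6 CPM at the highest. The ko libraries lay above all wild-type libraries, although the highest wild-type library came close to the lowest ko library, and the mutant add-back libraries lay inside the wild-type range. In the low depth class, however, wild type had 10.2 to 10.8 CPM, below both mutant add-back libraries, and the mutant add-back against wild type gave a log2 fold change of 1.27 (adjusted p = 2.45e-10), against 0.51 and no call over all libraries. The log2 fold change was 0.86 ± 0.20 in the ko against wild type (adjusted p = 0.00156), -1.48 ± 0.29 in the wild-type add-back against the ko (0.000419) and 1.12 ± 0.34 in the mutant against the wild-type add-back (0.014), the last of which was 1.00 with an adjusted p of 0.089 without mutant add-back replicate 3. The ko effect was 0.96 (adjusted p = 4.94e-07) within the middle class and 1.54 (1.40e-10) within the low class.

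Syt4, a synaptotagmin of vesicles that release neuropeptides and neurotrophins, moved the opposite way, with the largest fold change of the list in any of the 6 comparisons. It had 0.517 and 0.228 CPM in the mutant add-back, 4.22, 3.69 and 4.45 CPM in the wild-type add-back, 1.54, 1.28, 0.791, 0.635 and 0.523 CPM in the ko and, in wild type, 2.62 CPM at the lowest, 2.90 CPM at the median and 3.93 CPM at the highest. No wild-type or wild-type add-back library reached down to the highest ko library. Syt4 fell 3.15-fold in the ko against wild type (log2 fold change -1.65 ± 0.23, adjusted p = 7.80e-06) and was 4.19-fold higher in the wild-type add-back than in the ko (2.07 ± 0.27, 8.04e-06). It was 10.9-fold lower in the mutant than in the wild-type add-back (-3.45 ± 0.43, 9.14e-06) and 8.20-fold lower in the mutant add-back than in wild type (-3.04 ± 0.41, 1.06e-05). The mutant add-back values rest on 9 and 4 reads. The ko effect was -1.37 (adjusted p = 2.07e-05) within the middle class and -2.21 (8.78e-08) within the low class.

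Syn1, a vesicle phosphoprotein that tethers vesicles to actin, was called in 1 comparison over all libraries. It averaged 12.2 CPM in the wild-type add-back and 9.85 CPM in the ko. It fell in the mutant add-back against wild type (7.06 ± 1.69 CPM against 12.9 ± 3.96 CPM, log2 fold change -0.88 ± 0.28, adjusted p = 0.0161). Without mutant add-back replicate 1 that log2 fold change was -0.65, with an adjusted p of 0.21. In edgeR's test on the low-class libraries alone, the log2 fold change of Syn1 in this comparison was smaller, at -0.42 (adjusted p = 0.00896). The span of Syn1 overlaps Araf and Timp1. The remaining genes of the group were called in no comparison over all libraries. They were Syp and Syt5, vesicle membrane proteins, Cplx1, which clamps and promotes fusion, Syt11, a synaptotagmin, and Snap25, a SNARE of the plasma membrane. Their mean levels were 4.03, 3.03, 4.25 and 2.81 CPM for Syp in the mutant add-back, the wild-type add-back, the ko and wild type, and 4.49, 5.99, 7.77 and 6.23 CPM for Cplx1. In the same order they were 2.72, 2.18, 2.67 and 2.63 CPM for Syt5 and 11.7, 13.5, 15.3 and 14.1 CPM for Syt11. Snap25 was low, with group means of 0.343 to 0.861 CPM.

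**Figure D2:**
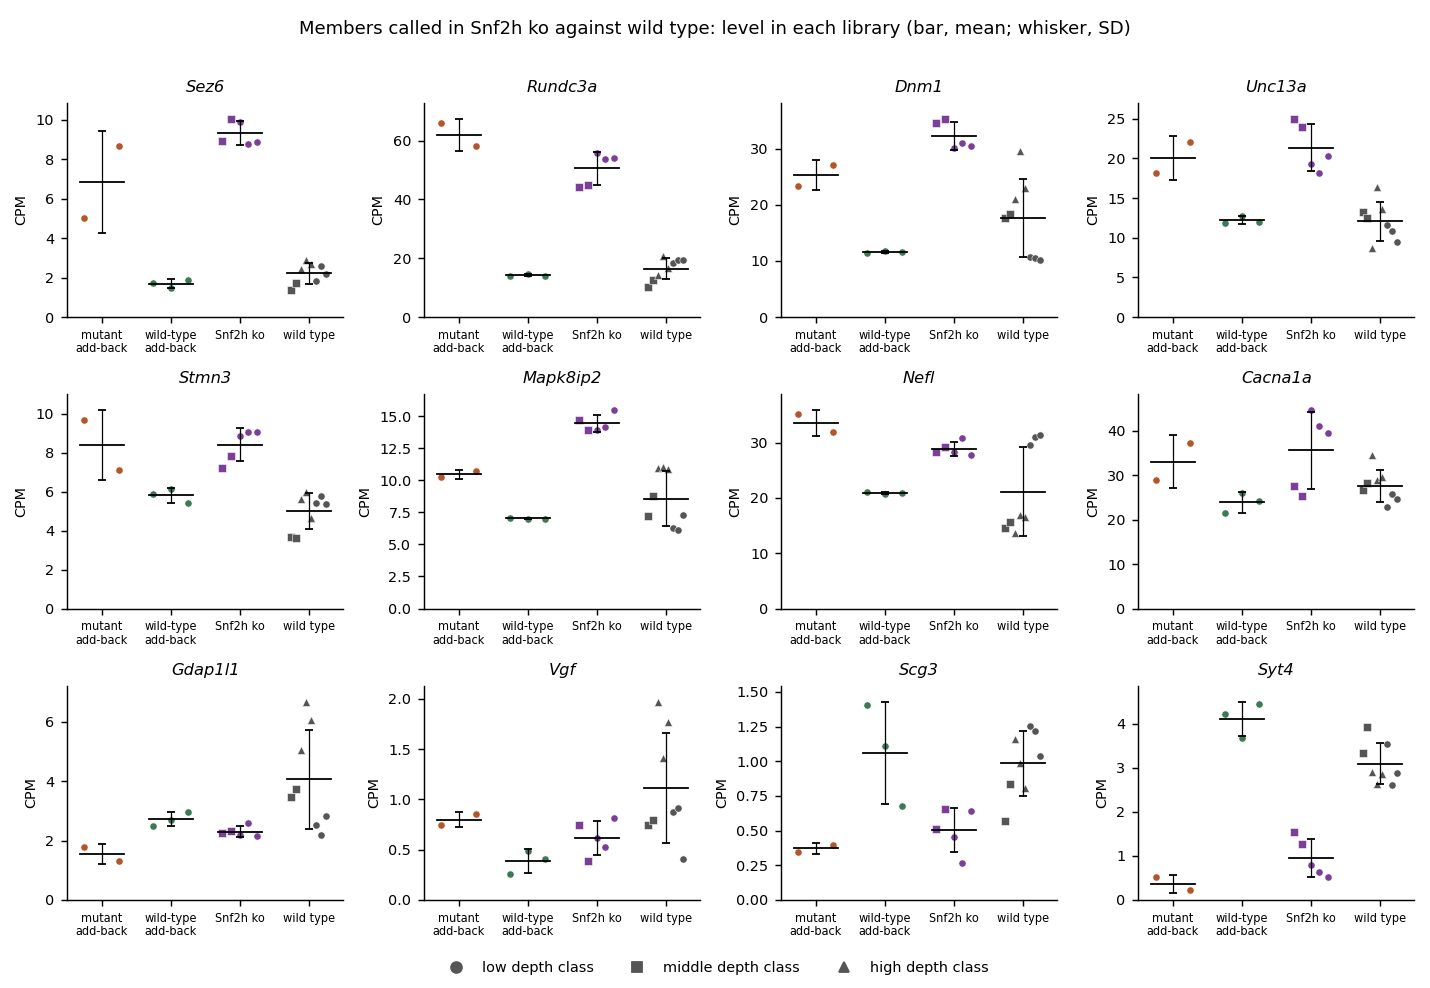
CPM of the 12 genes called in the ko against wild type, in each library (points, shaped by depth class) of the mutant add-back, wild-type add-back, ko and wild-type groups, with the group mean and SD (n = 2, 3, 5 and 8). Sez6 and Rundc3a are high in every ko and mutant add-back library, and Syt4 is low in the same libraries.

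Of the 4 tested genes of secretory granules and secreted proteins, Scg3 and Vgf fell in the ko and Chga and Bdnf were not called (2 of 4 called, against 55.0% of all genes). Neither fall was called within the middle depth class, and that of Scg3 was called within the low class. Scg3, a granin that sorts cargo to dense-core granules, had 0.345 and 0.398 CPM in the mutant add-back, 1.41, 1.11 and 0.674 CPM in the wild-type add-back, 0.512, 0.657, 0.452, 0.265 and 0.639 CPM in the ko and, in wild type, 0.571 CPM at the lowest, 1.01 CPM at the median and 1.26 CPM at the highest. The ko and wild-type ranges overlapped, while both mutant add-back libraries lay below all wild-type add-back and wild-type libraries. Its log2 fold change was -0.93 ± 0.25 in the ko against wild type (adjusted p = 0.00462), 1.06 ± 0.32 in the wild-type add-back against the ko (0.0126), -1.50 ± 0.45 in the mutant against the wild-type add-back (0.0137) and -1.38 ± 0.40 in the mutant add-back against wild type (0.0091). Its ko effect was -0.27 (adjusted p = 0.553) within the middle class and -1.38 (0.00153) within the low class. Without wild-type add-back replicate 1 the comparison with the ko gave 0.81 and an adjusted p of 0.1, and that with the mutant -1.26 and 0.059. Without mutant add-back replicate 1 or 3, the comparison with the wild-type add-back gave -1.42 (0.1) or -1.63 (0.056), and that with wild type -1.29 (0.1) or -1.49 (0.053).

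Vgf, a neuropeptide precursor, averaged 0.800 ± 0.0756 CPM in the mutant add-back, 0.384 ± 0.120 CPM in the wild-type add-back, 0.620 ± 0.171 CPM in the ko and 1.11 ± 0.548 CPM in wild type. It fell in the ko against wild type (log2 fold change -0.89 ± 0.33, adjusted p = 0.0273) with overlapping ranges, and the call was lost without wild type 3 (-0.72, adjusted p = 0.059), wild type 5 (-0.77, 0.053), ko 2 (-0.75, 0.082) or ko 4 (-0.84, 0.058). Within depth classes it was not called, at -0.44 (adjusted p = 0.33) within the middle class and -0.17 (0.702) within the low class. Bdnf, the neurotrophin, had 1.72 and 2.22 CPM in the mutant add-back, 4.22, 3.26 and 3.77 CPM in the wild-type add-back, 2.01, 1.93, 2.43, 2.59 and 2.96 CPM in the ko and, in wild type, 1.57 CPM at the lowest, 2.71 CPM at the median and 3.83 CPM at the highest. All wild-type add-back libraries lay above all mutant add-back and ko libraries, and only the first of them lay above the wild-type range. Bdnf was higher in the wild-type add-back than in the ko (log2 fold change 0.66 ± 0.24, adjusted p = 0.0342) and lower in the mutant than in the wild-type add-back (-0.92 ± 0.32, 0.0301). The first of these calls was lost without ko 1 (0.60, adjusted p = 0.071), ko 2 (0.59, 0.074), or wild-type add-back 1 (0.57, 0.13) or 3 (0.65, 0.081). The second was lost without wild-type add-back 1 (-0.83, 0.085) or 3 (-0.92, 0.062), or mutant add-back 1 (-0.77, 0.2) or 3 (-1.13, 0.056). Chga averaged 23.5, 17.4, 18.5 and 19.3 CPM in the mutant add-back, the wild-type add-back, the ko and wild type. Scg2, another granin, was under the count filter, with 0 and 1 read in the mutant add-back libraries, none in the wild-type add-back, and at most 3 reads in any ko and 2 in any wild-type library.

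Of the 3 cytoskeletal genes, Stmn3 and Nefl rose in the ko (66.7% called, against 55.0% of all genes). Stmn2 was called in no comparison over all libraries. Stmn3, a stathmin family member that binds tubulin, had 9.65 and 7.11 CPM in the mutant add-back, 5.88, 6.15 and 5.39 CPM in the wild-type add-back, 7.21, 7.81, 8.87, 9.05 and 9.06 CPM in the ko and, in wild type, 3.61 CPM at the lowest, 5.40 CPM at the median and 5.99 CPM at the highest. Every ko and mutant add-back library lay above every wild-type library. Its log2 fold change was 0.74 ± 0.14 in the ko against wild type (adjusted p = 0.000148), -0.53 ± 0.18 in the wild-type add-back against the ko (0.0232) and 0.74 ± 0.18 in the mutant add-back against wild type (0.00303). The ko effect was 1.04 (adjusted p = 8.38e-06) within the middle class and 0.70 (8.65e-05) within the low class. The comparison of the wild-type add-back with the ko gave -0.54 (adjusted p = 0.062) without wild-type add-back 1 and -0.48 (0.089) without 3, and that of the mutant add-back with wild type gave 0.50 (0.14) without mutant add-back 1.

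Nefl had 35.2 and 31.8 CPM in the mutant add-back, 21.1, 20.7 and 20.9 CPM in the wild-type add-back, 28.3, 29.1, 28.3, 30.8 and 27.7 CPM in the ko and, in wild type, 13.6 CPM at the lowest, 16.8 CPM at the median and 31.4 CPM at the highest. The ko libraries lay inside the wild-type range, and both mutant add-back libraries lay above it. The log2 fold changes of 0.46 ± 0.19 in the ko against wild type (adjusted p = 0.0489) and 0.67 ± 0.26 in the mutant add-back against wild type (0.0386) were close to the threshold. The ko call was lost without any 1 of the 5 ko libraries or of wild type 1 to 5 (0.38 to 0.48, adjusted p 0.062 to 0.087), and that of the mutant add-back without either mutant add-back library or any of wild type 1 to 5 (0.59 to 0.74, adjusted p 0.055 to 0.24). In the low depth class, which holds both mutant add-back libraries, Nefl had 29.6 to 31.4 CPM in wild type and the log2 fold change of the mutant add-back was 0.13 (adjusted p = 0.127). Stmn2 had 331 and 309 CPM in the mutant add-back, 362, 378 and 337 CPM in the wild-type add-back, 247, 252, 341, 355 and 359.6 CPM in the ko and, in wild type, 317 CPM at the lowest, 336 CPM at the median and 343 CPM at the highest. Ko 1 and 2, the libraries of the middle depth class, stood below the 3 ko libraries of the low class and below all wild-type libraries.

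Of the channel, receptor and calcium-handling genes, Cacna1a was the only 1 of 4 tested that was called in the ko (against 55.0% of all genes). Cacna1a, the pore subunit of the P/Q-type calcium channel of nerve terminals, had 28.8 and 37.3 CPM in the mutant add-back, 21.4, 26.1 and 24.1 CPM in the wild-type add-back, 27.6, 25.3, 44.6, 41.0 and 39.6 CPM in the ko and, in wild type, 22.8 CPM at the lowest, 27.4 CPM at the median and 34.6 CPM at the highest. Ko 3 to 5 lay above all wild-type libraries and ko 1 and 2 lay within the wild-type range. The log2 fold change was 0.36 ± 0.13 in the ko against wild type (adjusted p = 0.0261) and -0.57 ± 0.17 in the wild-type add-back against the ko (0.012). Without ko 3, 4 or 5 the first was 0.27, 0.31 or 0.32, with adjusted p 0.092, 0.068 or 0.06, and without wild-type add-back 1 the second was -0.50, with adjusted p 0.064.

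Atp2b2, a plasma membrane calcium pump, averaged 1.46 ± 0.131 CPM in the mutant add-back, 2.13 ± 0.193 CPM in the wild-type add-back, 3.31 ± 0.470 CPM in the ko and 4.36 ± 2.75 CPM in wild type. It fell in the mutant add-back against wild type (log2 fold change -1.60 ± 0.61, adjusted p = 0.0376), with overlapping ranges. In the low depth class, where both mutant add-back libraries lie, that log2 fold change was -0.02 (adjusted p = 0.941), and the call was also lost without wild type 1, 2, 4 or 5 (-1.54 to -1.42, adjusted p 0.051 to 0.055) or either mutant add-back library (-1.70 and -1.52, 0.17 and 0.18). Chrnb2, a nicotinic receptor subunit, averaged 2.92, 3.06, 3.31 and 3.89 CPM in the mutant add-back, the wild-type add-back, the ko and wild type. Over all libraries it was called in no comparison. Grin1, the obligatory subunit of NMDA receptors, was not called either, and its wild-type libraries spanned 0.366 to 8.68 CPM. Gria2, an AMPA receptor subunit, had no read in either add-back, at most 3 reads in a ko library and at most 2 in a wild-type library. Calb1, a calcium-binding protein, had 4 reads in each mutant add-back library, at most 1 in a wild-type add-back library, 1 to 9 in the ko and 1 to 4 in wild type; both genes were under the count filter.

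Among the 3 cell surface genes, Sez6 alone was called in the ko (33.3%, against 55.0% of all genes), where it rose with the highest fold change of the list. Sez6 encodes a membrane protein of dendrites and synapses (chr11:77930587-77979052). It had 5.00 and 8.65 CPM in the mutant add-back, 1.73, 1.48 and 1.89 CPM in the wild-type add-back, 8.94, 10.1, 9.88, 8.79 and 8.89 CPM in the ko and, in wild type, 1.36 CPM at the lowest, 2.31 CPM at the median and 2.90 CPM at the highest. No ko or mutant add-back library came down to the highest wild-type library. Sez6 was 4.18-fold higher in the ko than in wild type (log2 fold change 2.06 ± 0.17, adjusted p = 8.43e-09), 5.48-fold lower in the wild-type add-back than in the ko (-2.46 ± 0.25, 3.62e-07), 4.02-fold higher in the mutant than in the wild-type add-back (2.01 ± 0.28, 2.91e-05) and 3.06-fold higher in the mutant add-back than in wild type (1.61 ± 0.22, 1.21e-05). Its ko effect was 2.60 (adjusted p = 3.08e-09) within the middle class and 2.07 (8.29e-09) within the low class.

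L1cam, an adhesion molecule of axons, was called over all libraries only in comparisons with the mutant add-back. It had 2.76 and 2.62 CPM in the mutant add-back, 4.54, 4.98 and 4.58 CPM in the wild-type add-back, 4.25, 4.45, 4.91, 4.76 and 4.30 CPM in the ko and, in wild type, 4.52 CPM at the lowest, 5.47 CPM at the median and 6.71 CPM at the highest. Both mutant add-back libraries lay below all libraries of the other groups. The log2 fold change was -0.81 ± 0.21 against the wild-type add-back (adjusted p = 0.00512) and -1.04 ± 0.18 against wild type (0.000184), and against the ko it was -0.75 ± 0.19 with an adjusted p of 0.105. In edgeR's test on the low-class libraries alone, L1cam was called lower in the mutant add-back than in the ko (-0.79, adjusted p = 0.00269). It was also called lower there in the ko than in wild type (-0.31, 0.0426). Celsr3, an atypical cadherin of axon guidance, averaged 14.9 ± 4.39 CPM in the mutant add-back, 25.2 ± 1.44 CPM in the wild-type add-back, 20.9 ± 3.78 CPM in the ko and 18.9 ± 2.21 CPM in wild type. It fell in the mutant against the wild-type add-back (log2 fold change -0.76 ± 0.20, adjusted p = 0.00576). Without mutant add-back 1 that was -0.50, with an adjusted p of 0.12.

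The last group holds 3 genes, all of which were called in the ko (against 55.0% of all genes). Rundc3a, a RUN-domain protein of neurons (chr11:102393394-102402555), had 65.8 and 58.2 CPM in the mutant add-back, 14.1, 14.8 and 13.9 CPM in the wild-type add-back, 44.1, 44.9, 55.9, 53.8 and 54.1 CPM in the ko and, in wild type, 10.3 CPM at the lowest, 17.7 CPM at the median and 20.7 CPM at the highest. Its ko and mutant add-back libraries were separated from all wild-type and wild-type add-back libraries by more than 20 CPM. Rundc3a was 3.07-fold higher in the ko than in wild type (log2 fold change 1.62 ± 0.13, adjusted p = 1.12e-08), 3.54-fold lower in the wild-type add-back than in the ko (-1.82 ± 0.19, 4.94e-07), 4.35-fold higher in the mutant than in the wild-type add-back (2.12 ± 0.22, 9.69e-07) and 3.76-fold higher in the mutant add-back than in wild type (1.91 ± 0.17, 8.78e-08). Its ko effect was 1.97 (adjusted p = 2.83e-11) within the middle class and 1.52 (6.62e-11) within the low class.

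Mapk8ip2, a scaffold of the JNK kinase cascade, had 10.2 and 10.7 CPM in the mutant add-back, 7.03, 7.01 and 7.01 CPM in the wild-type add-back, 14.7, 13.9, 13.9, 14.1 and 15.5 CPM in the ko and, in wild type, 6.10 CPM at the lowest, 8.03 CPM at the median and 11.1 CPM at the highest. The ko libraries lay above the libraries of all other groups, and the mutant add-back lay between the ko and the wild-type add-back. The log2 fold change was 0.74 ± 0.14 in the ko against wild type (adjusted p = 0.000209) and -1.04 ± 0.19 in the wild-type add-back against the ko (0.000274). Its ko effect was 0.84 (adjusted p = 2.23e-06) within the middle class and 1.14 (6.48e-09) within the low class. Gdap1l1, a glutathione-transferase-like protein, had 1.78 and 1.31 CPM in the mutant add-back, 2.49, 2.71 and 2.97 CPM in the wild-type add-back, 2.25, 2.32, 2.20, 2.59 and 2.15 CPM in the ko and, in wild type, 2.20 CPM at the lowest, 3.60 CPM at the median and 6.68 CPM at the highest. Its ko libraries overlapped the lower end of wild type and both mutant add-back libraries lay below it. Gdap1l1 fell in the ko against wild type (log2 fold change -0.84 ± 0.24, adjusted p = 0.0067) and in the mutant add-back against wild type (-1.41 ± 0.38, 0.00489). The second was -1.21 with an adjusted p of 0.074 without mutant add-back 3. The ko effect on Gdap1l1 was -0.66 (adjusted p = 0.0056) within the middle class and -0.12 (0.589) within the low class. In edgeR's test on the low-class libraries alone, the mutant add-back against wild type gave a smaller -0.71 (adjusted p = 0.00709).

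In the wild-type add-back, 10 of the 26 genes were called against the ko. They were 38.5% of those tested, against 45.0% of all genes. Syt4, Scg3 and Bdnf rose (3 genes, 11.5%, against 22.5% of all genes), and Sez6, Rundc3a, Dnm1, Mapk8ip2, Unc13a, Cacna1a and Stmn3 fell (7 genes, 26.9%, against 22.4%). The median log2 fold change was -0.24 over the list and -0.01 over all genes. Within the low depth class 16 of 26 were called, against 64.9% of all genes. Both this comparison and that of the ko with wild type use the same ko libraries, so their opposite signs are not independent of each other. Compared with wild type, none of the 26 was called in the wild-type add-back, where 1.60% of all genes were. With the same test 5 (19.2%, against 15.2% of all genes) had an unadjusted p under 0.05, 2 higher (Snap25 and Celsr3) and 3 lower (Dnm1, Vgf and Atp2b2). DESeq2 called 0 of the list and 486 of all genes. A miss of the threshold does not show equal levels. Within the low depth class 10 of the 26 were called in this comparison (7 higher, 3 lower), against 33.0% of all genes (16% higher, 17% lower).

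The mutant add-back had no called change in the list against the ko, where 0.322% of all genes were called. With the same test 5 of the 26 (19.2%, against 15.3% of all genes) had an unadjusted p under 0.05, all lower in the mutant add-back (Cplx1, Syt4, L1cam, Celsr3 and Mapk8ip2). DESeq2 called 2 of the list and 333 of all genes. Within the low depth class, where the 2 mutant add-back and 3 ko libraries can be compared at like totals, 12 of 26 were called (3 higher, 9 lower), against 25.4% of all genes (12.9% higher, 12.5% lower). The 2 add-backs differed in feeder use and in mean Smarca5 level (58.5 CPM in the mutant, 86.0 CPM in the wild-type add-back) besides the ATPase mutation. Against the wild-type add-back, 9 of 26 genes were called in the mutant add-back (34.6%, against 37.0% of all genes). Rundc3a, Sez6, Dnm1 and Unc13a were higher (4 genes, 15.4%, against 18.4% of all genes) and Syt4, Scg3, Bdnf, L1cam and Celsr3 lower (5 genes, 19.2%, against 18.6%), with a median of -0.12 over the list and 0.01 over all genes. Against wild type, 11 were called in the mutant add-back (42.3%, against 45.5% of all genes). Of these, 5 were higher (Rundc3a, Sez6, Stmn3, Unc13a and Nefl; 19.2%, against 22.1% of all genes) and 6 lower (Syt4, Scg3, Atp2b2, Gdap1l1, L1cam and Syn1; 23.1%, against 23.5%), with a median of -0.31 over the list and -0.02 over all genes. Within the low depth class alone, 22 of 26 were called in the mutant against the wild-type add-back (against 67.3% of all genes) and 16 of 26 in the mutant add-back against wild type (against 66.6% of all genes). In the 6 comparisons over all libraries, 17 of 26 genes were called at least once (65.4%, against 68.9% of all genes). Chga, Chrnb2, Cplx1, Grin1, Snap25, Stmn2, Syp, Syt11 and Syt5 were called in none. In the fit on the low-class libraries alone, all of these but Chrnb2 were called at least once. Chga was higher there in the mutant than in the wild-type add-back (log2 fold change 0.43, adjusted p = 0.000158). It was lower in the wild-type add-back than in wild type (-0.39, 0.000485). Snap25 (1.46, 0.0102) and Syt5 (0.8, 0.00154) were higher there in the ko than in wild type. The share of all genes called at least once in that fit was not counted.

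**Figure D3:**
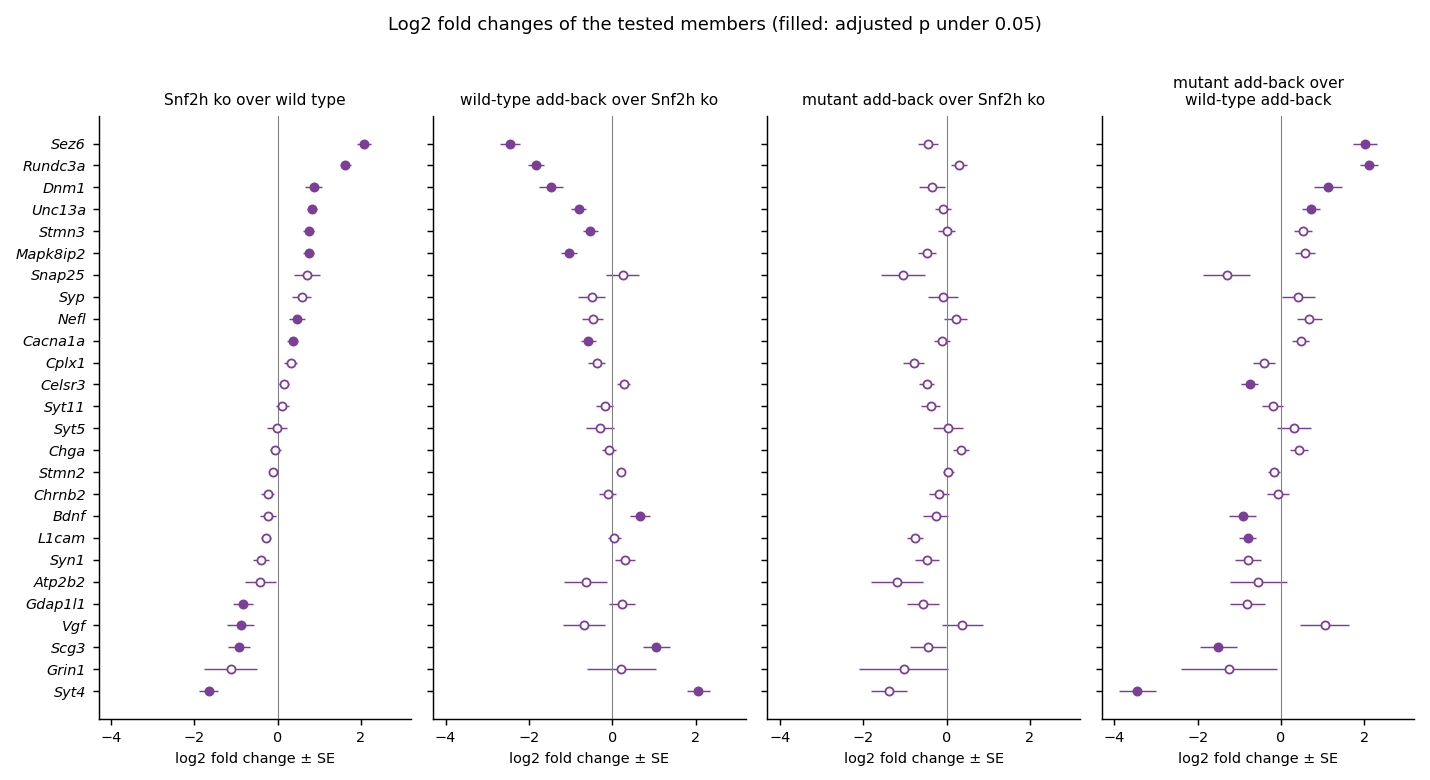
Log2 fold change with its SE for each tested gene of the list in 4 comparisons, the first-named group over the second; filled points mark called genes. Sez6 and Rundc3a lie highest and Syt4 lowest in the ko against wild type, and no gene is filled for the mutant add-back against the ko.

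The ko effect on several of these genes depended on which libraries were compared. In the fit over groups and depth classes, 17 of 26 genes were called in the ko against wild type within the middle class (9 higher, 8 lower, median log2 fold change -0.06), against 61.8% of all genes. Within the low class 17 were also called, 15 of them higher and 2 lower, with a median of 0.68, against 60.1% of all genes. A fit on the low-class libraries alone called 19 of 26 (15 higher, 4 lower), against 66.6% of all genes (32.5% higher, 34.2% lower). Sez6, Rundc3a, Dnm1, Unc13a, Stmn3, Mapk8ip2, Syp and Cplx1 were higher in the ko within both classes, and Syt4 was lower within both. Syt11, Grin1 and Atp2b2 were lower in the ko within the middle class and higher within the low class. Within the middle class alone, Syn1, Stmn2, Chrnb2 and Gdap1l1 were called lower and Nefl higher. Within the low class alone, Snap25, Syt5, Cacna1a and Celsr3 were called higher and Scg3 lower. Chga, Vgf, Bdnf and L1cam were called within neither class in this fit. The effect differed between the classes for 11 genes (42.3%) in a test of the difference itself, against 26.8% of all genes.

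Grin1 showed the widest difference. It had 3.62 and 3.17 CPM in the middle-class ko libraries, against 7.91 and 7.74 CPM in the middle-class wild-type libraries. In the low class it had 1.13, 0.794 and 1.57 CPM in the ko, against 0.601, 0.366 and 0.463 CPM in wild type. These low-class values rest on few reads, 20, 15 and 27 in the ko and 11, 6 and 8 in wild type. The direction of the ko effect was opposite in the 2 classes, with log2 fold changes of -1.20 (adjusted p = 0.00149) and 1.25 (0.0322), and the wild-type libraries alone differed between classes by more than the ko effect in either (log2 fold change -4.01, low over middle, adjusted p = 1.18e-07). Atp2b2 had 3.74 and 3.56 CPM in the middle-class ko libraries, against 6.85 and 6.83 CPM in wild type, and in the low class 3.05, 3.6 and 2.62 CPM in the ko, against 1.7, 1.59 and 1.16 CPM in wild type. Nefl differed the other way: its log2 fold change was 0.93 (adjusted p = 9.81e-08) in the middle class and -0.08 (0.394) in the low class. For Cacna1a the values were -0.05 (0.714) in the middle class and 0.77 (1.06e-06) in the low class, and for Stmn2 -0.43 (1.1e-05) and 0.06 (0.395). In wild type itself, 15 of 26 genes differed between low-class and middle-class libraries (4 higher, 11 lower), against 43.5% of all genes. What sets the classes apart besides depth is not given in the labels and was not tested. Grin1 overlaps the antisense gene Grin1os, so reads of the pair cannot be told apart if counting ignored strand.

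**Figure D4:**
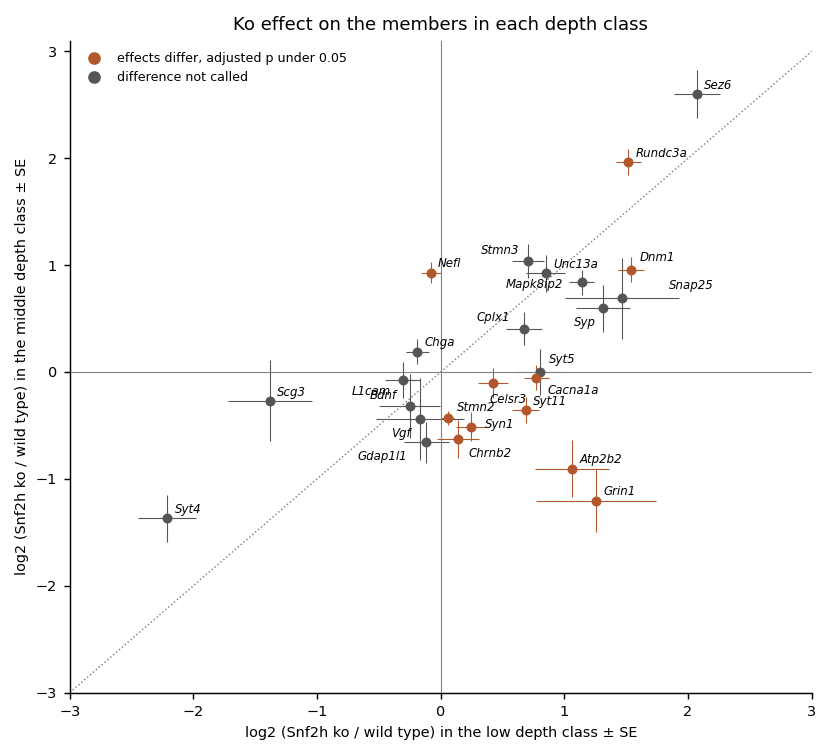
Log2 fold change (± SE) of the ko over wild type for each tested gene, within the middle depth class (vertical) and within the low depth class (horizontal); the dotted line marks equal effects and colour marks genes whose effects differ. Sez6, Rundc3a and Syt4 keep their direction in both classes, and Grin1 and Atp2b2 lie in the quadrant of opposite directions.

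Genes for REST and its partners changed in both directions. Their list, too, was chosen with earlier results of these data known. Of a list of 19 (Rest, its corepressors, deacetylases, methyltransferases and regulators), 14 were called in the ko against wild type, 7 higher and 7 lower (73.7%, against 55.0% of all genes), with a median of -0.03. Rest had 113 and 158 CPM in the mutant add-back, 279.7, 256 and 338 CPM in the wild-type add-back, 196, 184, 195, 198 and 182 CPM in the ko and, in wild type, 250.2 CPM at the lowest, 271 CPM at the median and 318 CPM at the highest. Each ko and mutant add-back library lay below all wild-type add-back and wild-type libraries. The log2 fold change of Rest was -0.56 ± 0.09 in the ko against wild type (adjusted p = 3.67e-05), 0.61 ± 0.11 in the wild-type add-back against the ko (0.000231), -1.10 ± 0.15 in the mutant against the wild-type add-back (1.54e-05) and -1.05 ± 0.13 in the mutant add-back against wild type (4.85e-06). Against the ko it was -0.49 ± 0.13 in the mutant add-back, with an adjusted p of 0.127. The ko effect on Rest was -0.72 (adjusted p = 5.79e-05) within the middle class and -0.57 (9.85e-05) within the low class.

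Rcor2, a CoREST family corepressor that binds the demethylase Kdm1a, had 174 and 153 CPM in the mutant add-back, 239, 229 and 224 CPM in the wild-type add-back, 96.6, 98.7, 168, 164 and 175 CPM in the ko and, in wild type, 211 CPM at the lowest, 243 CPM at the median and 293 CPM at the highest. Every ko library lay below every wild-type library, and ko 1 and 2 lay lowest. It fell in the ko (log2 fold change -0.80 ± 0.14, adjusted p = 8.27e-05). Its ko effect was -1.20 (adjusted p = 5.83e-09) within the middle class and -0.62 (3.89e-06) within the low class, and the effects of the classes differed (adjusted p = 0.00305). Hmg20b, an HMG-box subunit of the same complex, averaged 53.0 ± 3.90 CPM in the mutant add-back, 41.9 ± 3.74 CPM in the wild-type add-back, 50.8 ± 3.47 CPM in the ko and 36.0 ± 2.57 CPM in wild type, and rose in the ko (0.50 ± 0.07, 6.48e-06; 0.52 within the middle and 0.49 within the low class). In the other comparisons of this list, 12 of 19 were called in the wild-type add-back against the ko (6 higher, 6 lower; 63.2%, against 45.0% of all genes). In the mutant against the wild-type add-back 7 were called (4 higher, 3 lower; 36.8%, against 37.0%) and in the mutant add-back against wild type 9 (3 higher, 6 lower; 47.4%, against 45.5%). None was called in the mutant add-back against the ko (0.322% of all genes) or the wild-type add-back versus wild type (1.60%).

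**Figure D5:**
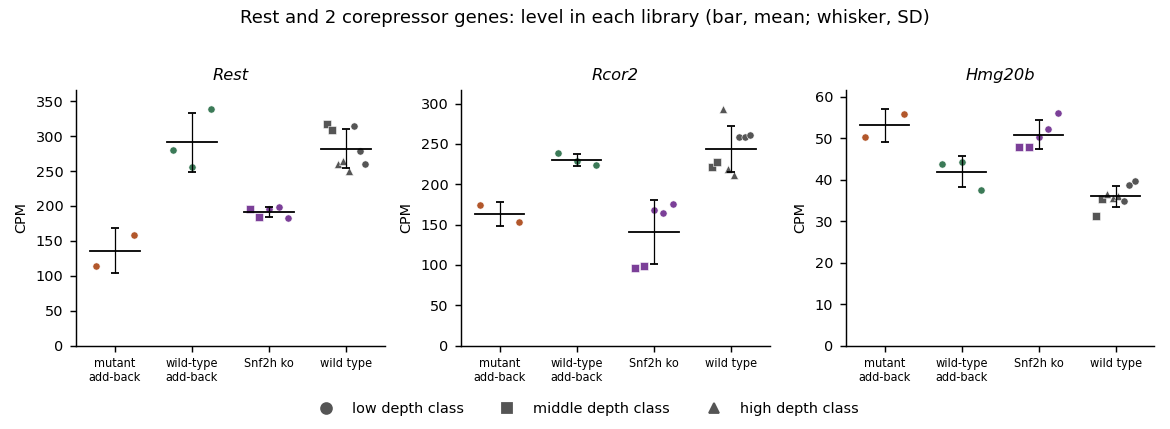
CPM of Rest, Rcor2 and Hmg20b in each library (points) of the mutant add-back, wild-type add-back, ko and wild-type groups, with the group mean and SD (n = 2, 3, 5 and 8). Rest lies between 113.3 and 197.8 CPM in the mutant add-back and ko libraries, below all libraries of the other 2 groups.

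A separate list of neuronal and cardiac genes known as REST targets gave calls in both directions as well. It was chosen with earlier results of these data known, so its shares called are not independent support. The 3 genes named below had the smallest adjusted p among those called. Of its 16 genes in the table, 11 were tested and 9 were called in the ko against wild type, 6 higher and 3 lower (81.8%, against 55.0% of all genes), with a median of 0.50. Scn3b, a sodium channel beta subunit, averaged 17.5 ± 1.30 CPM in the mutant add-back, 2.75 ± 0.642 CPM in the wild-type add-back, 21.1 ± 5.78 CPM in the ko and 3.00 ± 0.471 CPM in wild type (log2 fold change 2.80 ± 0.16 in the ko against wild type, adjusted p = 6.59e-11). Cdk5r2, an activator of the kinase Cdk5, averaged 29.9 ± 1.42, 2.86 ± 0.453, 18.7 ± 5.92 and 3.2 ± 0.976 CPM in the same groups (2.54 ± 0.21, 1.43e-08). Ap3b2, a neuronal subunit of the AP-3 adaptor, moved the other way, with 1.69 ± 0.191, 8.32 ± 0.204, 2.81 ± 0.333 and 11 ± 4.43 CPM (-1.99 ± 0.25, 2.55e-06). Within the middle and the low depth class the ko effect was 3.42 and 2.53 for Scn3b, 2.16 and 2.80 for Cdk5r2 and -1.99 and -1.18 for Ap3b2, each called. The effects of the classes differed for Scn3b (adjusted p = 0.00304) and Ap3b2 (0.00822). For all 3, the wild-type add-back libraries lay apart from the ko and mutant add-back libraries. Of the 11, 8 were called in the wild-type add-back against the ko (2 higher, 6 lower; 72.7%, against 45.0% of all genes), 8 in the mutant against the wild-type add-back (5 higher, 3 lower; against 37.0%) and 8 in the mutant add-back against wild type (5 higher, 3 lower; against 45.5%). None was called in the mutant add-back against the ko (0.322% of all genes) or the wild-type add-back versus wild type (1.60%).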

How the data were processed

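The authors deposited raw read counts for each gene in a single table with 1 column per library. Per the labels, stranded TruSeq libraries were made from polyadenylated RNA. Per the submitters' processing notes, bcl2fastq 2.17 was used for base calls and STAR for alignment to mm10 (GRCm38). No realignment was done here. The STAR version, counting tool, annotation and counting strand: not given in the sources used here.

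Of 24116 genes, 3581 had no count in any library, and filterByExpr with a count minimum of 10 left 14901. One edgeR 4.0.16 fit (R 4.3.3) over all 18 libraries had 1 mean per group, TMM scaling and the robust quasi-likelihood test (two-sided). Benjamini-Hochberg adjustment ran over the genes of each of 6 comparisons, with calls at adjusted p under 0.05. SEs are the size of the log2 fold change divided by the square root of F. The common coefficient of biological variation was 0.169. CPM uses TMM-scaled totals and RPKM the gene widths of the table. DESeq2 1.42.0 was an alternative. The scripts were tested on simulated data.

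Called genes were named with levels in every group, and with values per library (lowest, median and highest for the 8 wild-type libraries) where called in 2 or more comparisons. The listed genes, roles and marker lists were chosen with earlier results of these data known. Promoters came from RefSeq GRCm38.p6.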

Additional observations from a re-analysis of the deposited data

Results flagged for a closer look

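In a group of 8 wild-type libraries, Celsr3 stood at 23.72 CPM in wild type 5, against 16.02 to 19.23 CPM in the other 7. That gap to its neighbour, set against the range of the group, passed Dixon's 95% critical value. It was the only such value among 52 groups of libraries checked, and chance flags about 1 in 20 groups, here 2.6.

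The difference between the ko effect within the middle and within the low depth class, in edgeR's quasi-likelihood test of the difference itself, passed an adjusted p under 0.05 for 11 genes. On the log2 scale, middle minus low, it was -2.46 for Grin1, -1.97 for Atp2b2, -1.04 for Syt11, -0.83 for Cacna1a, -0.77 for Chrnb2, -0.75 for Syn1, -0.58 for Dnm1, -0.53 for Celsr3 and -0.49 for Stmn2. It was 1.01 for Nefl and 0.45 for Rundc3a. Grin1, Atp2b2 and Syt11 were called in opposite directions within the classes, and Dnm1 and Rundc3a were called higher in the ko within both. The middle class holds 2 ko and 2 wild-type libraries, and the low class 3 of each. Ko 1 and 2, the middle-class ko libraries, also had the highest summed level of primitive endoderm markers in the ko, up to 6976 CPM, whose part in these differences was not tested.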

How the results depend on the processing

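Replicate numbers did not pair the libraries: deviations from the group means of same-numbered libraries correlated at -0.246 to 0.174. With the replicate number as a block, the mutant against the wild-type add-back gave 15 listed genes called. Its blocked count over all genes stayed within 1.5 times of the main 5507. The wild-type add-back versus wild type gave 6 listed genes and 1002 of all genes with the block. All other blocked counts stayed within 1.5 times.

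Within the low depth class alone, the counts of listed genes called were 19 (ko against wild type), 16 (wild-type add-back against ko), 12 (mutant add-back against ko), 22 (mutant against wild-type add-back) and 10 (wild-type add-back versus wild type). Over all genes the counts were, in the same order, 9652, 9408, 3683, 9744 and 4786 (66.6%, 64.9%, 25.4%, 67.3% and 33.0%). With depth class as a term, the mutant add-back against the ko gave 2 listed genes and 480 of all, and the wild-type add-back versus wild type 1 and 1532. The mutant against the wild-type add-back gave 18 listed genes with that term, and its count over all genes stayed within 1.5 times of the main 5507. With only the 2 groups compared, the mutant add-back against the ko gave 15 genes in all, and the mutant against the wild-type add-back 19 listed genes and 8510 in all. DESeq2 gave 2 listed genes and 333 in all for the mutant add-back against the ko, and 486 in all for the wild-type add-back versus wild type. The cause was not tested.

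The ko effect was near 0, with a negative sign, for Nefl within the low class (-0.08, adjusted p = 0.27) and for Cacna1a within the middle class (-0.03, 0.72).

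Leaving out 1 library at a time gave, for listed genes and for all genes, 9 to 14 and 7425 to 8247 (ko against wild type), 6 to 11 and 5271 to 6519 (wild-type add-back against ko), 0 to 0 and 4 to 143 (mutant add-back against ko, main 48), 6 to 9 and 3014 to 4684 (mutant against wild-type add-back, main 5507), 0 to 1 and 44 to 260 (wild-type add-back versus wild type, main 238) and 6 to 11 and 3675 to 6912 (mutant add-back against wild type). Where an arm kept 1 library, it was assumed to vary like the other groups. With library size alone, 41.7% of the genes called in the wild-type add-back against the ko were higher, against 50.1% with TMM. Depth limits Snap25, Scg3, Syt4, Vgf, Grin1, Atp2b2, Gdap1l1, Sez6 and Bdnf, with a mean under 2 CPM in at least 1 group.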
